A study of Sus scrofa with 24 samples.

Results

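The small leucine-rich proteoglycans are a family of secreted matrix proteins, and 9 of their genes (ASPN, DCN, LUM, OGN, OMD, PRELP, FMOD, BGN and PODN) were followed here in pig preadipocytes. They were taken by symbol from a table of 25462 genes, of which 16135 passed the filter on low values, and all 9 passed it. The family was chosen after its levels by depot and day had been seen, so its changes are described below and carry no p-value of their own. Of the 24 libraries, 12 came from preadipocytes of back subcutaneous fat (BF) and 12 from those of the intramuscular fat of longissimus dorsi (IMF). The authors name 3 Yorkshire piglets at 6 days of age as the source of both. Each depot has 3 replicates at each of days 0, 2, 4 and 8 after adipogenic induction, and BF-4d stands for subcutaneous cells on day 4. The medium of the first 2 days held IBMX, dexamethasone and insulin, the next 2 days kept insulin alone, and growth medium followed. Both depots shared every agent of these media. The cells were primary cultures and were not sorted, and the authors describe sieves only for BF tissue. They digested longissimus dorsi with more collagenase and for longer than BF tissue, so isolation differed along with the depot. No source used here ties a replicate number to a piglet. The p-values of other genes therefore measure the spread between these samples, which may be technical.

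A protein of this family is a curved stack of leucine-rich repeats that binds the surface of collagen fibrils, where it sets their diameter and spacing. Many members carry chains of chondroitin, dermatan or keratan sulfate, and several bind transforming growth factor beta or bone morphogenetic proteins and so limit their access to receptors. In fat they belong to the matrix laid down by stromal cells and preadipocytes, which is remodelled when these cells take up lipid.

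The values were FPKM, which are scaled to the length of the transcript and to the mapped fragments of the library and can be compared between genes. A library's FPKM summed to 307967 to 385768, and 9985 to 10858 genes per library reached 1 FPKM. The table gives no reads per gene. Stromal markers were high in both depots, with 6 of 6 measured genes reaching 1 FPKM. The adipocyte markers summed to 8.60 to 620.4 FPKM in BF and to 2.64 to 143 FPKM in IMF, where 2 of 6 reached 1 FPKM and ADIPOQ was listed at 0 in every library. The myogenic list summed to 0.0571 to 4.91 FPKM in BF and 1.27 to 45.4 FPKM in IMF, with MYF5 and MYOD1 at 0 throughout, and 1 of 7 genes reached 1 FPKM in either depot. The endothelial sum did not exceed 5.20 FPKM and the immune sum did not exceed 18.8 FPKM. Markers of tendon and cartilage, tissues rich in these proteoglycans, summed to 7.61 to 24.6 FPKM in BF and 12.8 to 35.8 FPKM in IMF, and 4 of 6 reached 1 FPKM in each depot. The bone list, of which 3 of 5 genes were measured, summed to 5.42 to 16.7 FPKM. Replicates correlated across genes at Pearson's r of 0.987 to 0.994 in BF-0d and the IMF groups and of 0.962 to 0.991 in the later BF groups. The third BF-2d library correlated at 0.972 and 0.962 with the others, which were at 0.976 with each other, and its adipocyte marker sum was 22.9 FPKM against 93.2 and 88.0 FPKM. The third BF-4d library correlated at 0.965 and 0.970 with the others, which were at 0.991, and its summed level of the 9 genes was 1391 FPKM against 2014 and 2290 FPKM. Replicates 1 and 2 of BF-8d were at 0.969. The member counts of the comparisons with BF-2d and BF-4d are given further on also without replicate 3.

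The 9 genes lie at 5 places on Sscrofa11.1. OGN, OMD, ASPN and their relative ECM2 follow each other on the minus strand of chromosome 3 (chr3:42116521-42243746, 127.2 kb), and all 4 lie inside CENPP, a centromere protein gene on the opposite strand. None of their annotated exons (11 for OGN, 3 for OMD, 11 for ASPN and 17 for ECM2) overlapped any of the 16 exons of CENPP. DCN and LUM open a row with KERA and EPYC on the plus strand of chromosome 5 (chr5:91678601-91877779, 199.2 kb). FMOD (minus strand) and PRELP (plus strand) share chromosome 9 with OPTC (chr9:64062995-64220982, 158.0 kb), and an unnamed antisense RNA gene, LOC106507842, overlaps PRELP. BGN lies on chromosome X (chrX:124282048-124295450, plus strand) and PODN on chromosome 6 (chr6:159155251-159179456, minus strand). The coding sequences of OGN, LUM, DCN, ASPN, FMOD, PRELP, BGN and OMD encode 298 to 422 residues and that of PODN 612 residues. The exon number differed more, from 3 exons in LUM, OMD, PRELP and FMOD to 6 in OGN, 7 in BGN, 8 in ASPN, 10 in DCN and 12 in PODN on the transcript used. Whether reads were counted by strand is not given in the sources used here, so reads of PRELP and its antisense gene cannot be told apart where they overlap.

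The 250 bases before the annotated 5′ end are shown for 5 genes, as a description whose link to the levels was not tested. Those of OGN, OMD, ASPN and ECM2 belong to the chromosome 3 cluster, whose 4 genes were all lower on BF-8d than BF-0d, and that of PRELP to the member called higher there. The sequences were read from the RefSeq annotation of Sscrofa11.1 and run 5′ to 3′ on the strand of the gene. Capitals mark matches, on either strand, to TATAAA (the TATA box) or GGAATG (the TEAD site).
OGN (chr3:42135941-42136190, minus strand): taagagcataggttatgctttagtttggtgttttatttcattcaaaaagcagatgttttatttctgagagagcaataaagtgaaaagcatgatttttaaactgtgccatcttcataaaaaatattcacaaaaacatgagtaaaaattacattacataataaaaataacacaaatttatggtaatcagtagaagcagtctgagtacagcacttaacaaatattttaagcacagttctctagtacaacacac
OMD (chr3:42155033-42155282, minus strand): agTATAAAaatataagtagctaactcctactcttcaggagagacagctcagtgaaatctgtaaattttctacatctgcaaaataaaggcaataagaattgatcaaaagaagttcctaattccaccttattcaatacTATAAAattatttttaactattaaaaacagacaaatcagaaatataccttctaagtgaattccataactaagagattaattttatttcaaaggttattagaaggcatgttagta
ASPN (chr3:42192903-42193152, minus strand): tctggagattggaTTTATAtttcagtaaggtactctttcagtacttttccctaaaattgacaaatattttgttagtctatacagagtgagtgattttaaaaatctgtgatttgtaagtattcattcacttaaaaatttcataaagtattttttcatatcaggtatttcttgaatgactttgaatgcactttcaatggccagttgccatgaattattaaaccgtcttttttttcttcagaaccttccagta
ECM2 (chr3:42243747-42243996, minus strand): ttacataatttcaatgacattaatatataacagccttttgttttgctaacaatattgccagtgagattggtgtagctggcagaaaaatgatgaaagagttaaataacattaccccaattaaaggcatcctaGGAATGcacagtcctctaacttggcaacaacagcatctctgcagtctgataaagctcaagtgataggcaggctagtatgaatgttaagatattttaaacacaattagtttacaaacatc
PRELP (chr9:64190728-64190977, plus strand): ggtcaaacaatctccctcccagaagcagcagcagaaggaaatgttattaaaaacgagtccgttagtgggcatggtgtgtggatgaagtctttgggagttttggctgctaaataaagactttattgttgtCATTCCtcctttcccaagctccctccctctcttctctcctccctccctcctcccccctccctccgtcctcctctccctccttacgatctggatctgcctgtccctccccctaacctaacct

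The chromosome 3 windows held little G and C, at 28.4% for OGN, 27.2% for OMD, 29.2% for ASPN and 34.4% for ECM2, against a median of 57.6% over 19545 promoters of the same length. Between 0.614 and 4.21% of those promoters lay lower. DCN (38.4%) and LUM (46.0%) were also below the median, as were PRELP (51.6%) and FMOD (54.8%), while BGN (67.2%) and PODN (69.6%) lay above it. OMD held TATAAA at 2 positions, 248 and 114 bases before the start, and ASPN held it on the opposite strand, 237 bases before the start. The TATA box letters were in 9.76% of all promoters, a share not matched for G and C content. The TEAD letters were found in PRELP, PODN and ECM2 and in 10.3% of all promoters. Of 6 further motifs, searched on both strands, OGN, OMD, ASPN, ECM2, PRELP and DCN held none. The C/EBP motif, written TTGCNNAA, stood in the windows of FMOD and PODN and in 8.21% of all promoters. An E-box, written CACCTG, stood in those of LUM and PODN and in 19.6% of all promoters. The glucocorticoid receptor motif, written AGAACA, stood in that of LUM and in 10.3% of all promoters. The SP1 motif, written GGGCGG, stood at 2 positions in that of BGN and in 45.9% of all promoters. The AP-1 motif, written TGANTCA, was in 5.27% of all promoters and in none of the 9 windows. The RUNX motif, written TGTGGT, was in 14.0% of all promoters and likewise in none of the 9. No matches overlapped.

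The family was strongly expressed, and its summed level went different ways in the depots. The 9 genes together took 0.938% ± 0.031 of the FPKM of BF-0d and 0.548% ± 0.130 of that of BF-4d (SD, n = 3). In IMF the share was 0.979% ± 0.011 on day 0 and 1.19% ± 0.003 on day 4. In BF the 9 genes summed to 2973, 2860.1, 1898 and 1927 FPKM on days 0, 2, 4 and 8, and in IMF to 3379, 3762, 4104 and 3612 FPKM. The spread was widest in BF-2d (SD 498 FPKM) and BF-4d (SD 461 FPKM), whose mean sums were 2584 and 2152 FPKM without replicate 3. DCN ranked between place 28 and place 99 of all genes by group mean, and BGN reached place 26 in IMF-0d. These are bulk samples, in which fewer cells of a type and less RNA per cell cannot be told apart.

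**Figure D1:**
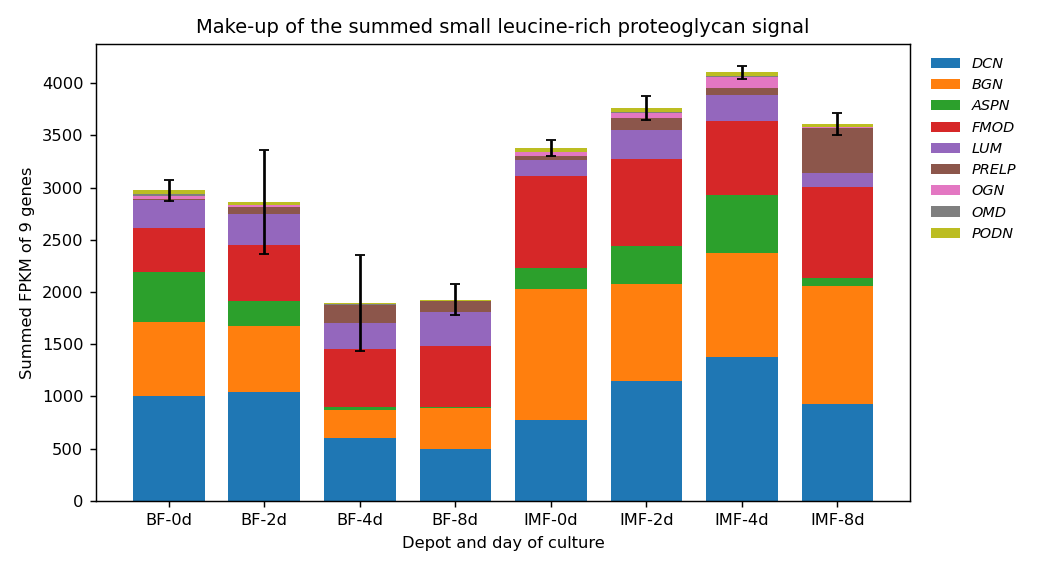
Summed FPKM of the 9 genes in each depot and day, as stacked group means of 3 libraries; the black bars give the SD of the sum. The sum stood near 2973 FPKM in BF-0d and 1898 FPKM in BF-4d, while the IMF groups lay between 3379 and 4104 FPKM.

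Among the class I members, which carry chondroitin or dermatan sulfate or are related to those that do, DCN and BGN were the most abundant. DCN (decorin) binds type I collagen and transforming growth factor beta. Its libraries read 945, 1043 and 1025 FPKM in BF-0d, 1029.5, 973 and 1133 in BF-2d, 733, 511 and 548 in BF-4d and 467, 462 and 563 in BF-8d. All BF libraries of days 4 and 8 lay below all those of days 0 and 2. In IMF the libraries read 827, 776 and 729 FPKM on day 0, 1199, 1101 and 1130.2 on day 2, 1426, 1353 and 1339 on day 4 and 952, 936 and 901 on day 8. Each IMF day was separate from the day before it, with the highest level on day 4. From day 0 to day 8, DCN fell by 1.02 ± 0.12 in BF on the log2(FPKM + 1) scale (change ± SE), just past the limit of 1. The IMF change over the same days was 0.26 ± 0.12 and was not called. The SE of a gene rests on 1 spread shared by all 8 groups and is the same in each pairwise comparison. It does not widen where replicates spread more, as in BF-2d and BF-4d.

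A gene was called when its adjusted p from limma was under 0.01 and its absolute log2 change at least 1. From BF-0d to BF-8d, 6 of the 9 members were called, 1 higher and 5 lower, and of all tested genes 13.7% were called (6.28% higher, 7.39% lower). From IMF-0d to IMF-8d, 2 members were called, 1 higher and 1 lower, and of all tested genes 9.04% (4.56% higher, 4.49% lower). ASPN (-1.32 ± 0.47) and OGN (-1.07 ± 0.33) were not called there, with libraries that did not overlap, but were without replicate 1 or 3 of BF-4d or in a fit on only those 2 groups, which made 4 members. With the members chosen for these patterns, the counts describe the family and test nothing. A scaling of the libraries by median ratios shifted the changes of all genes by a median of 0.153 from BF-0d to BF-8d, and under it the DCN change was -0.82 and was no longer called. Without replicate 2 of BF-0d, or replicate 1 or 2 of BF-8d, DCN was not called either, at values of -0.99, -0.98 and -0.97.

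BGN (biglycan), which binds collagen and, once released, the innate receptors TLR2 and TLR4, was separated between the depots on every day. It read 704, 719.7 and 715 FPKM in BF-0d, 504, 538 and 835 in BF-2d, 275, 329 and 208 in BF-4d and 389.9, 397 and 400.4 in BF-8d. In IMF it read 1215, 1165 and 1362 FPKM on day 0, 933, 871 and 989.5 on day 2, 1003, 1047 and 963 on day 4 and 1046, 1079 and 1255 on day 8. All IMF libraries of a day lay above all BF libraries of that day. BGN fell by 1.19 ± 0.16 (log2) between BF-2d and BF-4d, and fell by 0.97 without the third BF-2d library, which ended the call. The depot difference on day 4 was 1.91 ± 0.16 and on day 8 it was 1.50 ± 0.16, both called, while 0.80 ± 0.16 on day 0 and 0.61 ± 0.16 on day 2 were not.

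ASPN (asporin), a class I protein with a run of aspartates in place of the usual chain attachment, binds collagen and also transforming growth factor beta and BMP2. In BF it had the largest log2 change of the 9 genes from day 0 to day 8. Its libraries read 449, 494 and 492 FPKM in BF-0d and 188, 132 and 422 in BF-2d. They read 55.3, 20.6 and 7.29 FPKM in BF-4d and 12.9, 5.39 and 10.1 in BF-8d. The third BF-2d library stood near the day 0 level, the others well below it, and BF-4d overlapped BF-8d. From BF-0d to BF-8d it fell by 5.59 ± 0.47 on the log2 scale, from place 88 to place 4464 among all genes. In IMF, ASPN read 204, 239 and 180 FPKM on day 0, 418, 396 and 285 on day 2, 556, 527 and 580 on day 4 and 80.1, 92.1 and 75.3 on day 8. The level on day 4 was above every other IMF library, and that on day 8 below every other.

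ASPN was not called in the first 2 IMF intervals (0.81 ± 0.47 and 0.61 ± 0.47) and fell by 2.74 ± 0.47 in the last. In BF the largest interval change was from day 2 to day 4, at -3.35 ± 0.47, and at -2.88 without the third BF-2d library, with the call kept. A fit on only the libraries of BF-2d and BF-4d called 0 members in that interval by limma, with 5 at an unadjusted p under 0.05 (18.5% of all tested genes were), and 0 of all tested genes. The fit of all 8 groups called 4 members. The difference between depots was 4.68 ± 0.47 on day 4 and 3.06 ± 0.47 on day 8, both called, and on day 0 the BF level was the higher, at -1.21 ± 0.47, which was not called except in a fit on only those 2 groups.

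**Figure D2:**
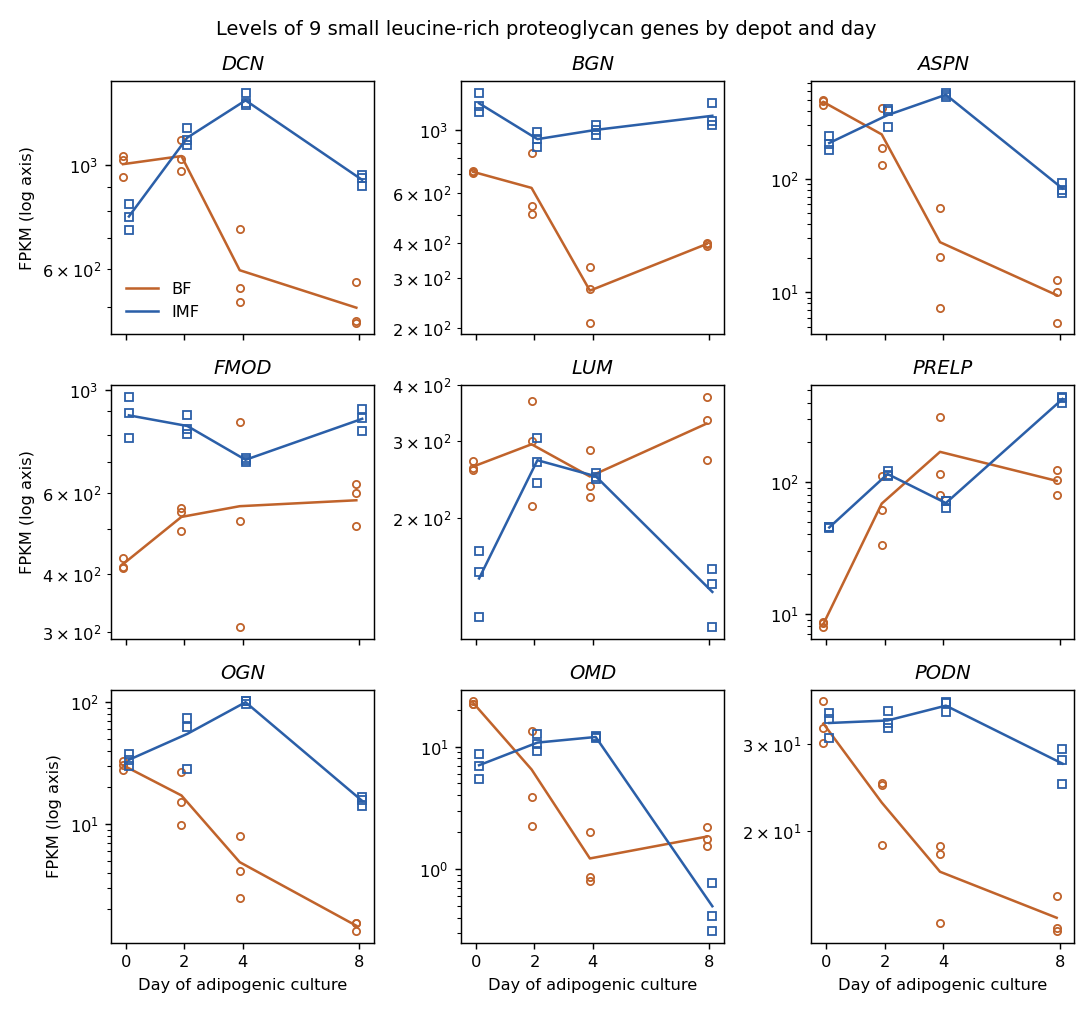
FPKM (log axis) of the 9 genes against the day of culture; circles are BF libraries, squares are IMF libraries and lines join the means of 3 libraries. ASPN, OGN and OMD are low in BF from day 4 on and in IMF on day 8, while PRELP starts at 8.37 FPKM in BF-0d and reaches 427 FPKM in IMF-8d.

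The neighbours of ASPN on chromosome 3 were, like it, lower on BF-8d than BF-0d and on IMF-8d than IMF-4d. OGN (osteoglycin, or mimecan), a short class III member that carries keratan sulfate in some tissues, read 27.8, 30.4 and 33.0 FPKM in BF-0d, 15.1, 9.78 and 26.8 in BF-2d, 8.04, 4.12 and 2.46 in BF-4d and 1.54, 1.32 and 1.53 in BF-8d. No BF group overlapped the one before it. In IMF it read 37.5, 33.6 and 30.1 FPKM on day 0, 74.4, 62.4 and 28.4 on day 2, 102, 96.0 and 102 on day 4 and 16.7, 14.1 and 15.7 on day 8. The third IMF-2d library lay below all 3 libraries of day 0, and the others above them. OGN fell by 3.67 ± 0.33 from BF-0d to BF-8d and by 2.62 ± 0.33 from IMF-4d to IMF-8d. Its depot difference was called on day 2 (1.62 ± 0.33), day 4 (4.22 ± 0.33) and day 8 (2.74 ± 0.33), while 0.14 ± 0.33 on day 0 was within the spread. On day 2 the value was 1.98 and called without the third BF-2d library, but the call was lost without replicate 2 of BF-2d or replicate 1 of IMF-2d, at values of 1.30 and 1.35.

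OMD (osteomodulin, or osteoadherin), an acidic class II member best known from bone matrix, was among the least abundant of the 9. It read 22.2, 23.6 and 22.4 FPKM in BF-0d, 3.90, 2.25 and 13.3 in BF-2d, 1.99, 0.800 and 0.865 in BF-4d and 1.75, 1.54 and 2.22 in BF-8d. Here the first BF interval already passed the call, at -1.95 ± 0.33, or -2.57 without the third BF-2d library. The second interval, at -1.50 ± 0.33, was not called without that library, when it was -0.89, nor without replicate 2 (-1.37) or 3 (-1.40) of BF-4d. In IMF, OMD read 6.93, 8.72 and 5.48 FPKM on day 0, 12.7, 10.5 and 9.12 on day 2, 11.9, 12.1 and 11.9 on day 4 and 0.309, 0.766 and 0.412 on day 8. It fell by 3.13 ± 0.33 in the last interval, to below the level of every BF library. On day 0 OMD was lower in IMF than in BF (-1.58 ± 0.33, called) and on day 4 higher (2.59 ± 0.33, called). The day 0 call was lost without replicate 1 or 2 of BF-0d or replicate 1 or 3 of IMF-0d, at values of -1.60, -1.55, -1.58 and -1.43.

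ECM2, which shares the leucine-rich repeats and is the last gene of the row, was not among the 9 and was tested with limma. Its libraries read 44.5, 49.5 and 51.7 FPKM in BF-0d, 8.76, 5.63 and 19.3 in BF-2d, 4.00, 1.84 and 0.379 in BF-4d and 0.793, 1.48 and 0.995 in BF-8d. In IMF they read 38.8, 48.0 and 33.7 FPKM on day 0, 48.3, 43.0 and 32.5 on day 2, 83.0, 77.0 and 85.1 on day 4 and 13.2, 17.4 and 13.8 on day 8. ECM2 fell by 4.58 ± 0.35 from BF-0d to BF-8d (limma adjusted p = 3.31e-09) and by 2.40 ± 0.35 from IMF-4d to IMF-8d (limma adjusted p = 3.01e-05). On day 4 it was 4.94 ± 0.35 higher in IMF (limma adjusted p = 2.07e-09), and its change from day 2 to day 4 differed between the depots by 3.01 ± 0.50 (limma adjusted p = 0.000996), or 0.0298 in a fit on only those 4 groups. That difference was 2.56 without the third BF-2d library and 2.53 without the third BF-4d library, called in both. Being the neighbour of genes picked for this course, ECM2 is close to them by position and is not an independent sample of the genome.

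**Figure D3:**
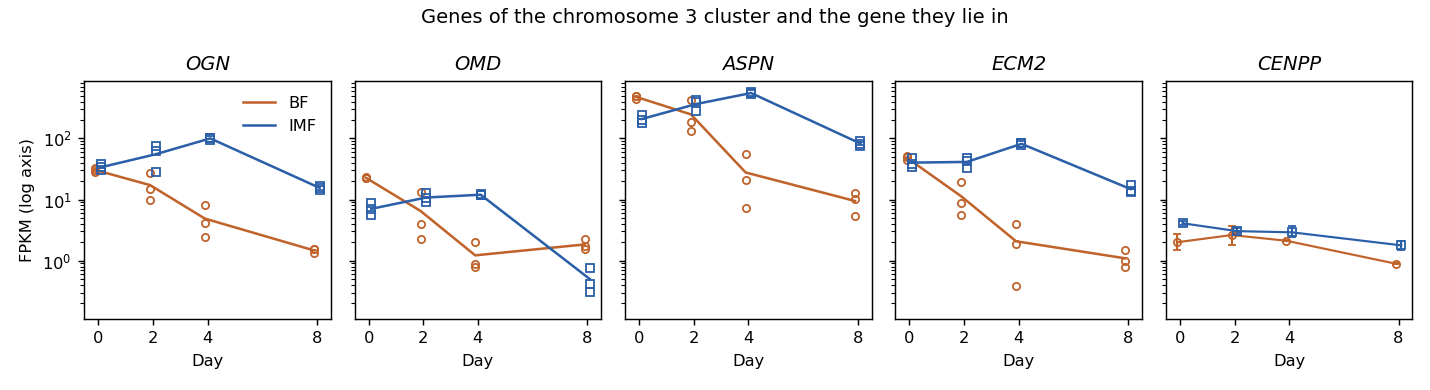
FPKM (log axis) of the 4 clustered genes and of CENPP, in whose span they lie; circles are BF and squares IMF, single libraries for the 4 genes and group means with the range of 3 libraries for CENPP. The 4 genes spread widely along the log axis while CENPP stays between 0.889 and 4.08 FPKM.

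CENPP itself had group means of 0.889 FPKM (BF-8d) to 4.08 FPKM (IMF-0d). Its change from BF-0d to BF-8d was -0.64 ± 0.17 (limma adjusted p = 0.00320) and from IMF-4d to IMF-8d -0.48 ± 0.17 (limma adjusted p = 0.0286), both short of the limit of 1. On day 4 the depots differed by 0.31 ± 0.17 (limma adjusted p = 0.138). The genes on either side of CENPP, NOL8 and IPPK, were added after the values were seen. NOL8 lay between 0.559 and 3.44 FPKM and IPPK between 3.02 and 4.36 FPKM by group mean, and neither was called in any of the 12 comparisons. Across the 24 libraries the log2 levels of ECM2 correlated at r = 0.97 with OGN, 0.94 with ASPN and 0.76 with OMD. Of the members on other chromosomes PODN (0.97), DCN (0.85) and BGN (0.83) were also close to it, and FMOD (0.33), LUM (-0.22) and PRELP (-0.39) were not. All these values share the same libraries and the same culture days.

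**Figure D4:**
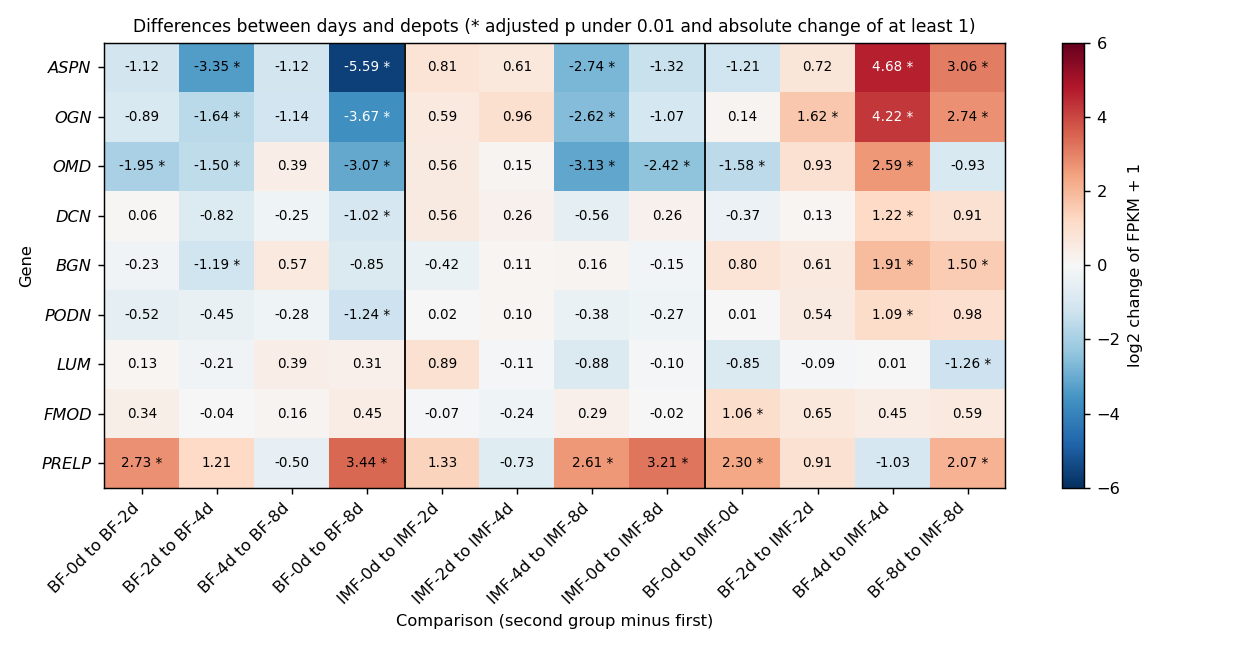
Log2 changes of FPKM + 1 for the 9 genes (rows) in 12 comparisons (columns, second group minus first), with colour for size and direction and an asterisk for calls. ASPN, OGN and OMD are negative from BF-0d to BF-8d (-5.59, -3.67 and -3.07) where PRELP is positive (3.44).

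PRELP, a class II member with a basic end that binds heparan sulfate and so ties collagen to basement membranes, went the other way. In BF it read 8.57, 8.61 and 7.92 FPKM on day 0, 112, 60.9 and 33.0 on day 2, 115, 314 and 79.0 on day 4 and 80.1, 103 and 123 on day 8. Every BF library from day 2 on lay above every BF-0d library, and the later days overlapped each other. In IMF it read 45.8, 45.2 and 44.4 FPKM on day 0, 112, 113 and 120.5 on day 2, 71.6, 72.2 and 63.9 on day 4 and 399.9, 437 and 444 on day 8. The 4 IMF days did not overlap, and the level on day 4 lay between those of days 0 and 2. PRELP rose by 2.73 ± 0.36 from BF-0d to BF-2d, or by 3.16 without the third BF-2d library, and by 3.44 ± 0.36 from BF-0d to BF-8d. In IMF it rose by 2.61 ± 0.36 from day 4 to day 8 and by 3.21 ± 0.36 from day 0 to day 8.

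Between depots PRELP was higher in IMF on day 0 (2.30 ± 0.36) and day 8 (2.07 ± 0.36), both called. On day 4 the BF libraries were all higher, at -1.03 ± 0.36, and that difference was not called, although it was at -1.45 without the third BF-4d library. Its share of the summed family level was 0.282% in BF-0d and 11.8% in IMF-8d.

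LUM (lumican), a keratan sulfate carrier that spaces collagen fibrils in the cornea, is the direct neighbour of DCN, and in BF its levels did not fall as those of DCN did. It read 260.1, 269 and 257 FPKM in BF-0d, 300.0, 214 and 369 in BF-2d, 286, 237 and 223 in BF-4d and 335, 272 and 377 in BF-8d. None of the 4 BF comparisons was called, with changes from -0.21 to 0.39. In IMF, LUM read 168, 151 and 119 FPKM on day 0, 304, 268 and 240.1 on day 2, 254, 248 and 246 on day 4 and 154, 142 and 113 on day 8. The IMF changes of 0.89 ± 0.18 into day 2 and -0.88 ± 0.18 into day 8 fell short of the limit of 1, although the libraries of the groups did not overlap. On day 8 LUM was lower in IMF than in BF, at -1.26 ± 0.18, and was called. OMD, at -0.93 on that day, was not called, but was with a pseudocount of 0.1 (-1.76) or quantile normalization (-1.09).

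FMOD (fibromodulin), another keratan sulfate carrier, which also guides collagen cross-linking by lysyl oxidase, had the smallest changes between days of the 9. It read 413, 435 and 415 FPKM in BF-0d, 545, 495 and 555 in BF-2d, 521, 854 and 308 in BF-4d and 509, 626 and 598 in BF-8d. The 3 BF-4d libraries alone covered the range of all the other BF libraries. In IMF it read 786, 891 and 966 FPKM on day 0, 802, 824 and 881 on day 2, 707, 713 and 700.4 on day 4 and 816, 911 and 871 on day 8. No change between days was called in either depot, the values lying between -0.24 and 0.45. On day 0 FMOD was higher in IMF by 1.06 ± 0.21 and was called, but the value was 0.98 under median ratio scaling and 0.99 without the third IMF-0d library, both uncalled.

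PODN (podocan), a longer class V member found around vascular smooth muscle and podocytes, read 30.1, 32.3 and 36.7 FPKM in BF-0d, 24.8, 18.8 and 25.1 in BF-2d, 18.6, 18.0 and 13.1 in BF-4d and 12.7, 12.5 and 14.8 in BF-8d. It fell by 1.24 ± 0.13 from BF-0d to BF-8d, with no single interval past the limit. In IMF its group means were 33.1 ± 2.0, 33.5 ± 1.4, 35.9 ± 1.0 and 27.4 ± 2.3 FPKM (SD, n = 3) on days 0, 2, 4 and 8. The depots overlapped on day 0 and not later, with a called difference on day 4 (1.09 ± 0.13) that was uncalled at 0.92 under median ratio scaling and at 0.94 without the third BF-4d library. That scaling shifted the day 4 differences of all genes by a median of -0.134.

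In order of group mean, each of the 9 genes had its own series of the 8 groups. IMF-4d stood first for DCN, ASPN, OGN and PODN, IMF-0d for BGN and FMOD, IMF-8d for PRELP, BF-0d for OMD and BF-8d for LUM. The leading group was clear of the next for DCN, ASPN, OGN, OMD and PRELP, and overlapped it for LUM, FMOD, BGN and PODN. BF-8d stood last for ASPN, DCN, OGN and PODN, but it overlapped BF-4d for ASPN, DCN and PODN. For BGN the 4 IMF groups came before the 4 BF groups, each IMF group overlapped the next, and IMF-2d was clear of BF-0d. For FMOD the IMF groups also came first by mean, but the BF-4d libraries, at 308 to 854 FPKM, overlapped each of them. BF-8d and BF-4d overlapped each other, and BF-0d came last.

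Counted over the family, members were called in the first 2 intervals of BF and in the last interval of IMF. From BF-0d to BF-2d 2 of 9 members were called (PRELP higher, OMD lower), and 6.59% of all tested genes were called (2.71% higher, 3.87% lower). Without the third BF-2d library OGN was called as well, at -1.25. On those 2 groups alone limma called 0 members, with 6 at an unadjusted p under 0.05, as were 32.6% of all tested genes. From BF-2d to BF-4d 4 were called, all lower (ASPN, OGN, OMD and BGN), against 3.35% of all tested genes (2.01% higher, 1.34% lower). Without the third BF-2d library ASPN alone was called, at -2.88. Without the third BF-4d library OGN (-1.31) and OMD (-1.40) were not called and PRELP was, higher at 1.63. From BF-4d to BF-8d limma called 0 members and 2.93% of all tested genes (1.78% higher, 1.14% lower). There 5 members and 32.2% of all tested genes had an unadjusted p under 0.05, and without the third BF-4d library ASPN (-1.81) and OGN (-1.47) were called. In IMF limma called 0 members from day 0 to day 2 (4 at an unadjusted p under 0.05 against 21.2% of all genes, 0.787% of all tested genes called, 0.328% higher and 0.459% lower) and 0 from day 2 to day 4 (2 at an unadjusted p under 0.05 against 8.34% of all genes, 0.0372% of all tested genes called, 0.0310% higher and 0.00620% lower). From IMF-4d to IMF-8d 4 were called (PRELP higher, ASPN, OGN and OMD lower), and 7.25% of all tested genes (4.16% higher, 3.08% lower). Median changes over the 9 genes were -0.82 in the second BF interval, against 0.02 over all tested genes, and -0.56 in the last IMF interval, against -0.07.

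Between depots, the members called on each day differed. On day 0, 3 were called (PRELP and FMOD higher in IMF, OMD lower), and 2.58% of all tested genes (1.87% higher, 0.713% lower). On day 2, OGN alone was called, higher in IMF, and 4.74% of all tested genes (2.71% higher, 2.02% lower), while the fit on BF-2d and IMF-2d alone called 0 members by limma, with 4 at an unadjusted p under 0.05, as were 27.3% of all tested genes. Without the third BF-2d library OGN (1.98) and OMD (1.55) were called on day 2. On day 4, 6 were called, all higher in IMF (ASPN, DCN, OGN, OMD, BGN and PODN), and 11.3% of all tested genes (6.60% higher, 4.72% lower). Without the third BF-4d library PODN was not called and PRELP was, at -1.45, and the other called values were 1.16 (DCN) to 3.99 (ASPN). On day 8, 5 were called (ASPN, OGN, BGN and PRELP higher in IMF, LUM lower), and 6.96% of all tested genes (4.31% higher, 2.65% lower). The median over the 9 genes was 1.22 on day 4 and 0.98 on day 8, against 0.07 and 0.04 over all tested genes.

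The change over an interval was also compared between depots, as the IMF change minus the BF change. From day 0 to day 2, 1 member was called (OMD, 2.51 ± 0.47), and 2.45% of all tested genes (1.23% higher, 1.21% lower). Without the third BF-2d library OMD (3.13), OGN (1.84) and PRELP (-1.83) were called there, and a fit on only those 4 groups called 0 members by limma, with 8 at an unadjusted p under 0.05 against 28.4% of all tested genes. From day 2 to day 4, 4 were called (ASPN 3.96 ± 0.66, OGN 2.60 ± 0.46, BGN 1.30 ± 0.23 and DCN 1.08 ± 0.17), and 3.06% of all tested genes (1.76% higher, 1.30% lower). DCN was not called there without replicate 2 of BF-4d (0.98) or with quantile normalization (0.83), and a fit on only the 4 groups compared called 0 members by limma, with 7 at an unadjusted p under 0.05 against 23.2% of all tested genes. Without the third BF-2d library the same 4 were called, at 3.49, 2.24, 1.08 and 1.03, and without the third BF-4d library PRELP was called as well, at -2.35. From day 4 to day 8, 3 were called (PRELP 3.10 ± 0.51, OMD -3.52 ± 0.47 and LUM -1.27 ± 0.25), and 6.39% of all tested genes (3.81% higher, 2.58% lower). Without the third BF-4d library these were 3.52, -3.41 and -1.19, all called, and without replicate 1 of BF-4d ASPN (-2.31) and OGN (-1.84) were called as well. Over the whole course, 3 were called (ASPN 4.27 ± 0.66, OGN 2.60 ± 0.46 and DCN 1.28 ± 0.17), and 4.98% of all tested genes (2.86% higher, 2.13% lower). For PRELP the difference in net change was -0.23 ± 0.51 and for OMD 0.65 ± 0.47, and neither was called.

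The marker sums also differed between days. For the adipocyte list, over days 0, 2, 4 and 8, the summed level per group was 9.58, 68.1, 229 and 429 FPKM in BF, against 3.08, 5.83, 12.3 and 123 FPKM in IMF. The stromal markers summed to 7701, 5003, 2708 and 3416 FPKM in BF and to 8327, 7717, 7044 and 4062 FPKM in IMF. That list holds COL1A1 and COL3A1, which are also counted with the genes of the collagen fibril, so its sum mixes matrix genes with surface markers. The tendon and cartilage list, which holds a proteoglycan of its own in ACAN, was at 24.1, 14.1, 11.6 and 9.96 FPKM in BF and at 23.9, 29.2, 34.3 and 14.0 FPKM in IMF. The myogenic list was at 4.72, 1.38, 0.0760 and 0.0998 FPKM in BF and at 37.1, 3.89, 11.7 and 1.72 FPKM in IMF. The part of any of these in the levels of the 9 genes was not tested.

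Of the remaining relatives, TSKU had the highest level in every group. TSKU (tsukushi), a class IV member that binds growth factors, had libraries between 28.5 and 70.5 FPKM and was called in no comparison. PODNL1, the relative of PODN, rose by 1.39 ± 0.18 from IMF-0d to IMF-8d (limma adjusted p = 4.50e-06), from 3.71 to 4.11 FPKM on day 0 to 10.7 to 13.4 FPKM on day 8. KERA (keratocan), the neighbour of LUM, did not exceed 3.03 FPKM. Its IMF level on day 4 was 1.84 ± 0.11 higher than that of BF (limma adjusted p = 1.50e-10), and it fell by 1.46 ± 0.11 into IMF-8d (limma adjusted p = 3.87e-09). CHAD (chondroadherin), a cartilage protein, rose by 1.10 ± 0.22 from BF-0d to BF-2d (limma adjusted p = 0.000757), to 5.06 to 5.28 FPKM, and by 1.12 without the third BF-2d library. NYX (nyctalopin) rose by 1.11 ± 0.10 into IMF-8d (limma adjusted p = 1.12e-07), where it reached 1.43 to 1.76 FPKM. OPTC and CHADL did not reach 1 FPKM in any library, and EPYC was listed at 0 in every library but 2 of IMF-4d and was not tested.

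Of the direct neighbours outside chromosome 3, KERA beside LUM was, like LUM, higher on IMF-2d and IMF-4d than on IMF-0d and IMF-8d by group mean. OPTC beside PRELP changed by 0.36 ± 0.08 from IMF-4d to IMF-8d (limma adjusted p = 0.00262), short of the limit of 1. BTG1, an antiproliferative gene and the nearest one before DCN, although 860664 bases away, rose by 2.82 ± 0.25 from BF-0d to BF-8d (limma adjusted p = 2.48e-08), from 14.9 ± 0.9 to 111 ± 5 FPKM (SD, n = 3), over the days on which DCN fell. In IMF it rose by 1.92 ± 0.25 from day 4 to day 8 (limma adjusted p = 8.87e-06). ATP2B3 beside BGN and SLC1A7 beside PODN were at most 0.0666 and 0.0952 FPKM by group mean and were not tested. BTG2 beside FMOD, TREX2 beside BGN and SCP2 beside PODN could not be matched to a row and were not analysed here.

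Genes that act on or with these proteins were described from lists of 125 symbols, of which 117 were in the table and 109 were tested. Of 25 genes of the collagen fibril, 3 were called higher and 8 lower from BF-0d to BF-8d (median -0.39, against 6.28% higher, 7.39% lower and a median of -0.06 over all tested genes). On day 4, 8 were higher in IMF and 1 lower (median 0.46, against 6.60% higher, 4.72% lower and a median of 0.07). COL11A1, a minor chain that starts thin fibrils, was 4.71 ± 0.28 higher in IMF-4d (limma adjusted p = 1.93e-10), at 58.3 ± 6.3 FPKM against 1.33 ± 0.76 (SD, n = 3). COL14A1, a fibril-associated collagen that binds decorin, fell by 2.45 ± 0.38 from BF-2d to BF-4d (limma adjusted p = 0.000209; -2.28 and -1.78 without the third library of BF-2d or of BF-4d) and was 2.47 ± 0.38 higher in IMF on day 8 (limma adjusted p = 5.60e-05). On day 0 the matrix glycoprotein TNXB was 2.57 ± 0.16 higher in IMF (limma adjusted p = 1.06e-09). From IMF-0d to IMF-2d DPT (dermatopontin), which binds decorin, fell by 1.30 ± 0.20 (limma adjusted p = 0.000444) and COL12A1 rose by 1.23 ± 0.28 (limma adjusted p = 0.00968). The COL12A1 call was lost without any of the 6 libraries compared (limma adjusted p of 0.0235 to 0.0590) and without most of the others.

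Among 8 tested proteases that cleave these proteoglycans, 3 rose and 1 fell from BF-0d to BF-8d (median 1.37), and 5 rose from IMF-0d to IMF-8d with 0 lower (median 1.32, against 4.56% higher, 4.49% lower and a median of -0.05 over all tested genes). On day 4 there was 1 higher and 4 were lower in IMF (median -1.28). The shares and medians of all tested genes were those given for the collagen list. ADAMTS4, an aggrecanase, rose by 4.09 ± 0.36 from BF-0d to BF-8d (limma adjusted p = 2.04e-08), to 70.2 ± 35.3 FPKM from 2.86 ± 0.29. It rose by 3.93 ± 0.36 from IMF-4d to IMF-8d (limma adjusted p = 1.07e-07), to 40.0 ± 4.1 FPKM. The related ADAMTS5 rose by 1.83 ± 0.33 from IMF-0d to IMF-2d (limma adjusted p = 0.00157), a call lost without replicate 3 of IMF-0d (1.70) or replicate 2 of IMF-2d (1.72). ADAMTS1 rose by 2.55 ± 0.32 from BF-0d to BF-2d (limma adjusted p = 7.99e-06), or 0.0181 on those libraries alone, and by 3.12 without the third BF-2d library. MMP13, a collagenase, rose by 3.30 ± 0.79 from BF-2d to BF-4d (limma adjusted p = 0.00579), with 41.0 ± 66.7 FPKM in BF-4d. That call was lost without replicate 1, 2 or 3 of BF-2d, at values of 3.28, 3.42 and 3.20, and without the third BF-4d library the value was 1.60 and called. Over all these lists 20 genes were called from BF-2d to BF-4d, and a fit on only those groups called 0 by limma, with 41 at an unadjusted p under 0.05 (18.5% of all tested genes were). The calls of COL14A1, MMP13 and TGFB2 in that interval were thus made only with the other groups in the fit.

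The lists of enzymes, ligands and other proteoglycans can be read against all tested genes, of which 13.7% were called from BF-0d to BF-8d (6.28% higher, 7.39% lower, median -0.06) and 11.3% on day 4 (6.60% higher, 4.72% lower, median 0.07). The enzymes that build the sugar chains moved unevenly. Of 7 tested keratan sulfate enzymes, 4 rose and 0 fell from BF-0d to BF-8d (median 1.29), and on day 4, 1 was higher and 4 lower in IMF (median -1.10). Of 25 tested chondroitin and dermatan sulfate enzymes, 3 rose and 3 fell from BF-0d to BF-8d (median -0.12), and on day 4, 1 was higher and 1 lower in IMF (median -0.004).

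Of 19 tested ligands and receptors, 5 rose and 1 fell from BF-0d to BF-8d (median 0.10), against 6.28% higher, 7.39% lower and a median of -0.06 over all tested genes. CCN2, a matricellular growth factor that binds decorin, fell by 6.32 ± 0.51 over that course (limma adjusted p = 7.96e-09), from 344 ± 61 to 3.41 ± 1.30 FPKM, and it fell by 3.70 ± 0.51 from IMF-4d to IMF-8d (limma adjusted p = 1.59e-05). TGFB2, a ligand that several members bind, rose by 2.23 ± 0.43 from BF-2d to BF-4d (limma adjusted p = 0.00117), at 1.75 and 1.58 without the third library of BF-2d or of BF-4d. TGFBR3, the betaglycan coreceptor, fell by 1.67 ± 0.26 from BF-4d to BF-8d (limma adjusted p = 0.000181, or 0.0473 on those libraries alone). Of 17 tested proteoglycans of other families, 2 rose and 5 fell from BF-0d to BF-8d (median -0.52), and 8 were higher and 2 lower in IMF on day 4 (median 0.72). GPC6, a glypican, was 2.68 ± 0.24 higher in IMF on day 8 (limma adjusted p = 8.98e-08) and 1.50 ± 0.24 higher on day 0 (limma adjusted p = 0.000201). ESM1 (endocan) was 2.27 ± 0.31 higher in IMF on day 0 (limma adjusted p = 2.25e-05) and 3.52 ± 0.31 higher on day 2 (limma adjusted p = 1.09e-07), or 3.79 without the third BF-2d library.

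Among 7546 genes with a symbol and a group mean of at least 5 FPKM, those whose levels over the 24 libraries were most like each member were picked by Pearson's r, given as a description. OGN and PODN had the same 3 nearest genes, AKAP12, ECM2 and LHFPL6 (r of 0.96 to 0.98), although they lie on different chromosomes. Over the 8 group means ECM2 was in place 20 for OGN and 7 for PODN, and LHFPL6 in places 6 and 13. ASPN was closest to ACAA2 (r = 0.97), CCDC80 and SGSH, and OMD to FSTL1 (r = 0.97), AGTR1 and CACNA1H. PRELP was closest to PLK2 (r = 0.93), SMOC1 and ST3GAL5, BGN to CERCAM (r = 0.97), MAPK3 and SRI, and DCN to ATP6V1D, SFRP2 and ISLR2 (each r = 0.92). The highest values over single libraries were lower for LUM (0.77, SLC1A3) and FMOD (0.83, LOXL3), and over the 8 group means LOXL3 was at 0.93 with FMOD. Within the family, ASPN and OGN correlated at 0.99 over the 12 BF libraries and 0.96 over the 12 IMF libraries, and OMD and PRELP at -0.93 and -0.83. LUM and DCN correlated at -0.02 in BF and 0.84 in IMF.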

How the data were processed

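RNA of 24 libraries was sequenced, 3 per depot and day. The authors aligned paired reads with HISAT2 to Sscrofa11.1 (Ensembl annotation) and assembled and quantified transcripts with StringTie 1.3.4d. The deposited values were FPKM, already scaled by the authors to transcript length and mapped fragments. Their DESeq2 1.6.3 comparisons were not used, since FPKM are not counts. Here log2(FPKM + 1) of the 16135 genes whose FPKM summed to over 1 was fitted with limma 3.58.1 (R 4.3.3; lmFit, contrasts.fit, eBayes with trend and robust), with 1 mean for each of 8 groups, in 12 pairwise comparisons and 4 contrasts of changes between depots. The step was tested on simulated data. Benjamini-Hochberg adjustment ran over all tested genes, and a call needed an adjusted p under 0.01 and an absolute log2 change of at least 1. Changes are later minus earlier day and IMF minus BF. The table holds no reads per gene, so no counting intervals are given.

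The members and all lists were chosen with earlier results of these data known. Named are the 9 members, their other relatives, per comparison up to 3 called list genes with the largest change (without overlap of libraries and with the higher group averaging 1 FPKM or more), the 3 genes most like each member and the direct neighbours. Genes were matched by symbol, and 8 of the 125 listed symbols had no match. In the table, 0 columns of sample values were left unused. Alternatives were another pseudocount, filters, scalings, samples in the fit, a replicate block and leaving out each library.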

Additional observations from a re-analysis of the deposited data

Results flagged for a closer look

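In 11 instances the change of a member over an interval differed between the depots past the call limits, given as the IMF change minus the BF change on the log2(FPKM + 1) scale. Since the members were chosen with these levels known, the values are a description. From day 0 to day 2 this held for OMD (2.51), and for 2.45% of all tested genes. From day 2 to day 4 (3.06% of all tested genes) it held for ASPN (3.96), OGN (2.60), BGN (1.30) and DCN (1.08), whose BF levels fell or were lower on day 4 while the IMF means were higher. From day 4 to day 8 (6.39%) it held for PRELP (3.10), which rose in IMF, and with the opposite sign for OMD (-3.52) and LUM (-1.27). Over the whole course from day 0 to day 8 (4.98%) it held for ASPN (4.27), OGN (2.60) and DCN (1.28). Without the third BF-2d library OMD was at 3.13 from day 0 to day 2, and OGN (1.84) and PRELP (-1.83) also passed the limits. Fits on only the 4 compared groups called 0 members by limma in each of the first 2 intervals, with 8 and 7 at an unadjusted p under 0.05 against 28.4% and 23.2% of all tested genes.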

How the results depend on the processing

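No member value changed direction while called, under any alternative. A replicate block changed no call among the 144 member values; the deviations of same-numbered libraries correlated at -0.246 to 0.457, over 0.1 for all 3 numbers in 0 comparisons, so no pairing was established. Fitting only the compared groups moved most counts. In BF, such fits called 237 of 16135 tested genes (main 1063) over days 0 to 2. Over days 2 to 4 and 4 to 8 they called 0 (main 541) and 4 (main 472). In IMF they called 167 (main 127) over days 0 to 2 and 1538 (main 1459) over days 0 to 8. Between depots they called 512 (main 417) on day 0 and 107 (main 764) on day 2. In the depot difference they called 132 (main 395) over days 0 to 2 and 33 (main 493) over days 2 to 4. Over days 0 to 8 they called 1047 (main 804) there. Members called were then 0 against 2 from BF-0d to BF-2d, 0 against 4 from BF-2d to BF-4d, 1 against 0 from IMF-0d to IMF-2d, 4 against 2 from IMF-0d to IMF-8d, 4 against 3 and 0 against 1 between depots on days 0 and 2, and for the depot difference in change 0 against 1 (days 0 to 2) and 0 against 4 (days 2 to 4). List genes called were then 9 against 21 from BF-0d to BF-2d, 0 against 20 from BF-2d to BF-4d, 1 against 7 from BF-4d to BF-8d, 10 against 6 between depots on day 0 and 6 against 18 on day 2, and in the depot difference 1 against 9 (days 2 to 4) and 29 against 16 (days 0 to 8). A pseudocount of 0.1 gave 1 member from BF-4d to BF-8d (main 0), no filter gave 3 list genes from IMF-0d to IMF-2d (main 5), and quantile normalization gave 2 members in the depot difference of days 0 to 2 (main 1). Members called when each library was left out ranged from 2 to 3 (BF-0d to BF-2d), 1 to 5 (BF-2d to BF-4d), 0 to 2 (BF-4d to BF-8d), 5 to 6 (BF-0d to BF-8d), 0 to 1 (IMF-0d to IMF-2d), 0 to 0 (IMF-2d to IMF-4d), 4 to 4 (IMF-4d to IMF-8d) and 2 to 4 (IMF-0d to IMF-8d). Between depots they ranged from 1 to 3, 0 to 2, 6 to 6 and 5 to 6 on days 0, 2, 4 and 8, and for the depot difference in change from 1 to 3 (days 0 to 2), 3 to 5 (days 2 to 4), 3 to 5 (days 4 to 8) and 3 to 4 (days 0 to 8). List genes called ranged from 14 to 28 (BF-0d to BF-2d), 14 to 25 (BF-2d to BF-4d), 3 to 11 (BF-4d to BF-8d), 38 to 42 (BF-0d to BF-8d), 1 to 6 (IMF-0d to IMF-2d), 0 to 0 (IMF-2d to IMF-4d), 16 to 20 (IMF-4d to IMF-8d) and 25 to 30 (IMF-0d to IMF-8d), and between depots from 5 to 8, 12 to 28, 33 to 39 and 17 to 21 on days 0, 2, 4 and 8. The cause of these shifts was not tested. The table holds no reads per gene, so levels below about 1 FPKM, as for OMD in IMF-8d, have no counting error beside their spread.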
